A study of Mus musculus with 16 samples.

Results

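The genes described here encode the enzymes and regulators of sterol and fatty acid synthesis in mouse CD8 T cell clones activated with or without cyclosporine A. The 33 genes were listed by name, as 18 sterol enzymes, 5 sterol regulators and carriers, and 10 fatty acid enzymes. A probe set with a listed symbol as its single gene was found for 32 of the 33, out of 19938 genes measured. The exception was Acat2, a thiolase at the head of the pathway, for which no value is given. Each gene is represented by its brightest probe set, by mean over the 16 arrays.

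RNA came from a pair of clones. By its cell type label the conventional clone is cyclosporine-sensitive, and that of the unconventional clone is cyclosporine-resistant. Each type is thus represented by a single clone, and properties of the clone and of its type cannot be told apart. All 16 arrays are of cells grown in a cytokine mixture and then activated with plate-bound antibody to CD3, without recombinant cytokines. There were 4 arrays in each of 4 groups, with cyclosporine A at 0 or 1 ug per ml in each clone. Whether the replicates were separate cultures is not stated, so the p-values reflect the spread among these arrays alone, which can be technical. No unstimulated cells were analysed here.

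Cholesterol is built from acetyl-CoA through mevalonate, isoprenoid diphosphates, squalene and lanosterol, and fatty acids are built from the same acetyl-CoA by way of malonyl-CoA. Both branches are driven by the sterol regulatory element-binding proteins (SREBPs), membrane-bound transcription factors that the escort protein SCAP carries from the endoplasmic reticulum to the Golgi for cleavage when sterols are low, while INSIG proteins hold them back when sterols are plentiful. SREBP-2, encoded by Srebf2, favours sterol genes and SREBP-1, encoded by Srebf1, favours fatty acid genes. T cells that leave quiescence after receptor stimulation are known to raise this programme as they grow. Cyclosporine A, bound to cyclophilin A, inhibits the phosphatase calcineurin and so the NFAT transcription factors.

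SREBPs bind sterol regulatory elements close to binding sites of NF-Y and Sp1, so the promoters of the members were searched on both strands for TCACNCCAC, a spelling of the sterol regulatory element, for CCAAT, the NF-Y box, and for GGGCGG, the Sp1 box. RefSeq promoter windows of assembly GRCm38.p6, from 250 bases before to 50 bases after the start of transcription, were at hand for 26 of the 33 genes. CCAAT was found for 14 of 15 sterol enzyme genes (93.3%), 3 of 4 regulator genes (75%) and 4 of 7 fatty acid enzyme genes (57.1%), against 41.1% of all 27025 genes with a window. GGGCGG was found for 14 of 15 sterol enzyme genes, 4 of 4 regulator genes and 4 of 7 fatty acid enzyme genes, against 38.2% of all genes. TCACNCCAC was found for 1 member gene, Hmgcs1, against 1.44% of all genes. Other spellings of the element were not searched, so a window without a match is not shown to lack it. These are matches of letters, not measured binding.

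The 5 windows below belong to the members on which the results turn: Hmgcs1, which rose in both clones, Cyp51, which moved in opposite directions, the feedback regulator Insig1, Acss2, which rose most, and Fasn, which fell in both. Each reads 5′ to 3′ along the gene, with matches of TCACNCCAC and of CCAAT (its reverse complement marks the other strand) in capitals. They lie at chr13:119690101-119690400 on the plus strand (Hmgcs1), chr5:4104648-4104947 on the minus strand (Cyp51), chr5:28071162-28071461 on the plus strand (Insig1), chr2:155517793-155518092 on the plus strand (Acss2) and chr11:120824498-120824797 on the minus strand (Fasn).
Hmgcs1: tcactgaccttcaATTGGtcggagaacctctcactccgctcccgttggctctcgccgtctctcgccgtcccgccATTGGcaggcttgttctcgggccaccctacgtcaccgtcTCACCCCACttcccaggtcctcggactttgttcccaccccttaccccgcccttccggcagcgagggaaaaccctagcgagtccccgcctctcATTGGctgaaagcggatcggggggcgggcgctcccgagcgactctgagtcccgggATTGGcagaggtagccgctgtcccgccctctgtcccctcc
Cyp51: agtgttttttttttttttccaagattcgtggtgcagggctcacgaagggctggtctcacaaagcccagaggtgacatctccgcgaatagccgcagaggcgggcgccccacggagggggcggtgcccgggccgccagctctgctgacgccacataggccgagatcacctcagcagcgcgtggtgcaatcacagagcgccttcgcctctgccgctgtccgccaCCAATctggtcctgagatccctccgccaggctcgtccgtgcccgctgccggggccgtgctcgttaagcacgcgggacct
Insig1: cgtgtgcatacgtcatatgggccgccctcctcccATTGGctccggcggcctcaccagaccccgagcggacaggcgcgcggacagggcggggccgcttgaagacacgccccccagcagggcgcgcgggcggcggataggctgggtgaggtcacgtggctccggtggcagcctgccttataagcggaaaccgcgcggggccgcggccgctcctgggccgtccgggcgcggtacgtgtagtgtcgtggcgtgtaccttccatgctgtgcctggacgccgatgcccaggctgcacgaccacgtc
Acss2: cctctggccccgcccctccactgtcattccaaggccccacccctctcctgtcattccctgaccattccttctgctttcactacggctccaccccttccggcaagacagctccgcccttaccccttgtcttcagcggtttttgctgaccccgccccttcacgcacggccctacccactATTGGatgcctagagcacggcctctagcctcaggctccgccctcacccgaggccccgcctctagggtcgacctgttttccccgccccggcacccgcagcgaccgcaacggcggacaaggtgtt
Fasn: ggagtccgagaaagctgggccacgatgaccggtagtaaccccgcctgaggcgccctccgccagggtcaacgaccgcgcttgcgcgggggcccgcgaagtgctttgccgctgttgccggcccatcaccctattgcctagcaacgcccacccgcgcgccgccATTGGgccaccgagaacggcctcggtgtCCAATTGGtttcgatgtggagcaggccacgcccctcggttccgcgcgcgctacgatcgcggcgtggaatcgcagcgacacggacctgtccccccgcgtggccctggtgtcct
The Hmgcs1 window held 4 CCAAT boxes and the single match of the searched spelling of the sterol regulatory element, TCACCCCAC, which began at position -137 from the start. The windows of Cyp51, Insig1 and Acss2 held 1 CCAAT box each, and that of Fasn held 3, of which 2 share letters on opposite strands. Genes that rose and genes that fell thus both carried the box.

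Levels are log2 expression values, and a change is a difference of log2 values with its standard error (SE), so that a change of 1 is a doubling. The threshold for a call was an adjusted p of 0.05 in limma's moderated linear model over all 19938 genes, with Benjamini-Hochberg adjustment. As to the arrays as a whole, medians lay between 5.16 and 5.35 and arrays within a group correlated at 0.995 to 0.998. The 7 measured T cell markers had group means from 8.56 to 12.74, the low end being Cd8a in the unconventional clone with the drug, while Cd4 stayed between 4.21 and 4.32. Of the genes listed with Cd4, Zbtb7b was called higher with the drug in both clones. It rose by 0.47 in the conventional and 0.53 in the unconventional clone, where it averaged 7.07 with the drug. Cd4, Foxp3 and Zbtb16 were not called in either clone. Summed B cell markers ranged from 6.28 to 6.65 over all arrays on the log2 scale. Among epithelial and fibroblast markers, Lum averaged 9.87 and 4.16 without and with the drug in the conventional clone and 6.14 and 4.00 in the unconventional one, and Cdh1 averaged 5.03 and 5.05 in the former and 7.12 and 9.22 in the latter. The summed level of these 10 markers ran from 10.25 to 10.63, 8.64 to 8.89, 8.80 to 9.40 and 9.76 to 10.20 in the same order of groups. That of 10 macrophage and dendritic cell markers ran from 8.15 to 9.50 over all arrays, of which Cd68 averaged 7.26, 8.05, 8.71 and 9.13. Their part in the results below was not tested.

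With cyclosporine A, the conventional clone raised nearly its whole sterol pathway, and the unconventional clone did not. In the conventional clone 14 of 17 sterol enzyme genes rose and 1 fell, with a median change of 0.81, where 15.9% of all genes rose, 15.5% fell and the median was 0.02. In the unconventional clone 3 rose, 4 fell and 10 were not called, with a median of -0.09, where 12.6% of all genes rose, 12.3% fell and the median was 0.02. Of the fatty acid enzyme genes, 4 rose and 2 fell of 10 in the conventional clone and 3 rose and 3 fell in the unconventional one, with medians of -0.04 and 0.04. The median change of the sterol enzymes thus exceeded that of the fatty acid enzymes in the conventional clone and not in the unconventional clone. In the conventional clone the arrays with the drug lay wholly above those without it for 14 sterol enzyme genes and wholly below for 1, against 15.3% and 15.1% of all genes. In the unconventional clone they lay above for 3 and below for 7, against 14.2% and 13.0%.

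**Figure D1:**
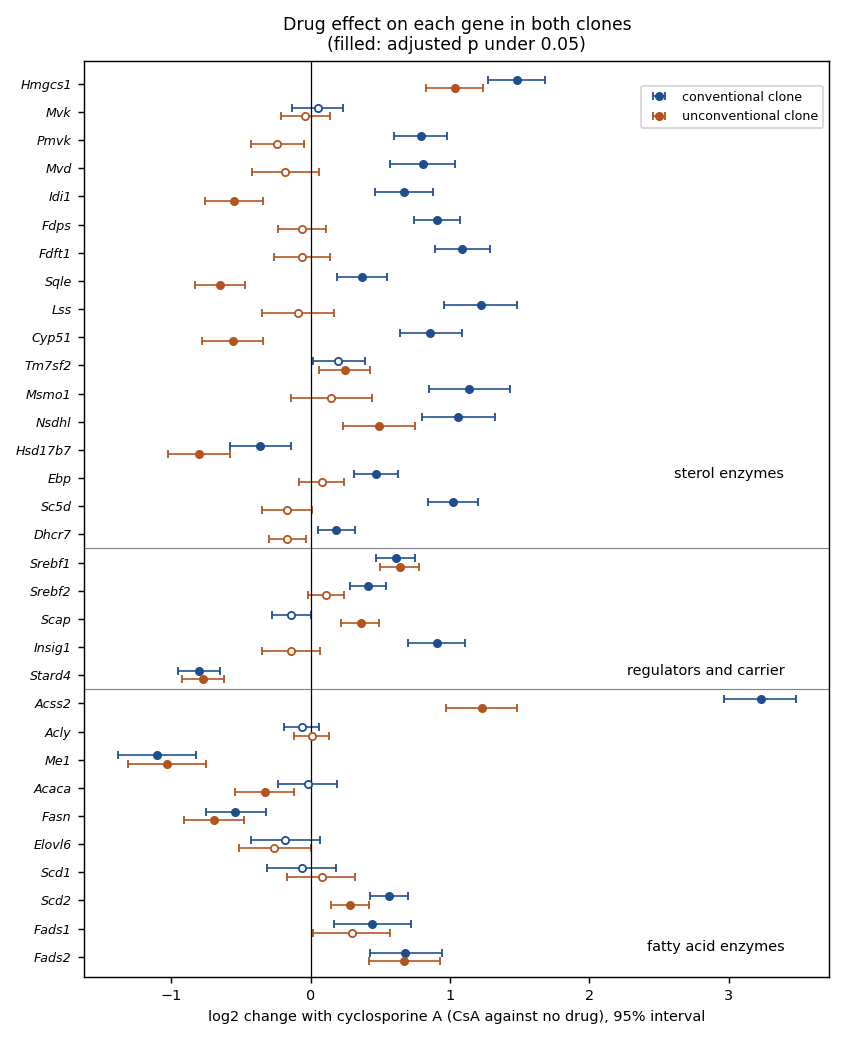
Log2 change with cyclosporine A (horizontal axis) for each of the 32 measured genes, in the conventional (blue) and unconventional clone (brown). Points are estimates from 4 arrays per group, bars are 95% intervals, and filled points have an adjusted p under 0.05; most sterol enzymes lie to the right of 0 in blue and near or left of 0 in brown, while the fatty acid enzymes have no common direction.

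The first steps make and process mevalonate. Hmgcs1 makes HMG-CoA from acetoacetyl-CoA and was the sterol gene with the largest rise in either clone. In the conventional clone its 4 arrays read 10.52, 10.24, 10.18 and 10.41 without the drug and 11.84, 11.98, 11.74 and 11.69 with it. Its arrays in the unconventional clone read 9.71, 10.15, 10.07 and 10.10 without and 11.04, 11.10, 10.97 and 11.05 with it. The groups did not overlap in either clone, and the rises were 1.48 (SE 0.10, adjusted p = 2.7e-10) and 1.04 (SE 0.10, adjusted p = 1.1e-07) in limma's model. The difference between them was called at -0.44 (SE 0.14, adjusted p = 0.034), but this call was lost in 11 of 23 alternatives, 10 of them leaving out a single array, where the adjusted p reached 0.078. Those arrays were conventional anti-CD3 replicates 2 and 3, conventional drug replicates 1 and 2, unconventional anti-CD3 replicates 2, 3 and 4, and unconventional drug replicates 1, 3 and 4.

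The kinases and the decarboxylase that follow behaved unequally. Mvk, mevalonate kinase, was not called in either clone (0.05, 95% interval -0.13 to 0.23, and -0.04, interval -0.21 to 0.14). Pmvk, which adds the second phosphate, rose from 8.22 ± 0.12 to 9.01 ± 0.13 (SD, n = 4) in the conventional clone and went from 8.45 ± 0.19 to 8.20 ± 0.05 (SD, n = 4) in the unconventional one. That -0.24 missed the threshold (adjusted p = 0.056 in limma's model), although its arrays did not overlap, and passed it in 6 of 16 alternatives. Mvd, which removes a carboxyl group to give isopentenyl diphosphate, rose by 0.81 (SE 0.11) in the conventional clone and changed by -0.18 (SE 0.11, adjusted p = 0.32) in the other.

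Idi1 and Fdps turn these units into farnesyl diphosphate, the branch point to sterols and prenyl groups. Idi1, the isomerase, was one of 3 sterol genes called in opposite directions. Its arrays rose from 10.70, 10.37, 10.22 and 10.35 to 11.02, 11.26, 10.98 and 11.06 in the conventional clone and fell from 10.78, 11.07, 11.07 and 10.89 to 10.32, 10.41, 10.34 and 10.54 in the unconventional clone. The groups did not overlap in either clone, with changes of 0.67 (SE 0.10) and -0.55 (SE 0.10, adjusted p = 0.00024). A second Idi1 probe set gave 0.66 and -0.51. Fdps, the farnesyl diphosphate synthase, rose by 0.91 (SE 0.08) in the conventional clone and stood at 10.02 ± 0.16 and 9.96 ± 0.08 (SD, n = 4) without and with the drug in the other.

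Squalene is then made, oxidised and closed into lanosterol. Fdft1, the squalene synthase, read 9.76, 9.33, 9.17 and 9.24 in the conventional clone without the drug and 10.46, 10.53, 10.40 and 10.45 with it. The unconventional clone read 10.43, 10.34, 10.32 and 10.42 without and 10.38, 10.21, 10.29 and 10.37 with it. The 4 arrays of the conventional clone without the drug were thus the low ones, and the other 12 arrays lay between 10.21 and 10.53. The rise of 1.09 (SE 0.10) was also seen with a second Fdft1 probe set (1.11), and the change in the unconventional clone was -0.06 (interval -0.26 to 0.14). Sqle, squalene epoxidase, rose by 0.37 (SE 0.09, adjusted p = 0.0019) in the conventional clone and fell by 0.65 (SE 0.09, adjusted p = 7.8e-06) in the unconventional one.

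Lss closes the epoxide to lanosterol. Its arrays in the conventional clone read 8.50, 8.10, 8.10 and 8.01 without the drug and 9.52, 9.49, 9.22 and 9.36 with it, a rise of 1.22 (SE 0.12) without overlap. The unconventional clone read 8.52, 9.15, 8.95 and 9.15 without and 8.73, 8.87, 8.92 and 8.88 with it. Those groups overlapped, since the first array without the drug was the lowest of all 8, and the change was -0.09 (interval -0.35 to 0.17).

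Lanosterol is demethylated and rearranged to cholesterol. Cyp51, the lanosterol 14-demethylase, showed the largest difference between the clones among the sterol genes. It rose from 9.62, 9.34, 9.07 and 9.35 to 10.17, 10.44, 9.98 and 10.26 in the conventional clone, and fell from 9.42, 9.49, 9.40 and 9.47 to 8.78, 8.90, 8.80 and 9.06 in the unconventional clone. Neither pair of groups overlapped. The changes were 0.86 (SE 0.11) and -0.56 (SE 0.11), and their difference was -1.43 (SE 0.15, adjusted p = 8.8e-07).

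Msmo1 and Nsdhl remove the methyl groups at carbon 4 of the sterol ring. Msmo1 rose from 11.40, 10.96, 10.95 and 11.16 to 12.24, 12.42, 12.15 and 12.22 in the conventional clone (1.14, SE 0.14). In the unconventional clone it read 10.77, 11.58, 11.52 and 11.46 without the drug and 11.42, 11.58, 11.41 and 11.50 with it, where 1 array without the drug stood apart and the other 7 lay close together. The change there was 0.15, and -0.04 without that array. Nsdhl, with Hmgcs1, was called upward in both clones. It rose from 8.32, 7.89, 7.80 and 7.99 to 9.14, 9.24, 8.96 and 8.90 in the conventional clone, and from 8.15, 8.70, 8.73 and 8.70 to 9.04, 9.10, 8.99 and 9.10 in the unconventional clone. The groups did not overlap, and the rises were 1.06 (SE 0.12) and 0.49 (SE 0.12, adjusted p = 0.0054). Their difference of -0.57 (adjusted p = 0.030) lost its call in 9 of 23 alternatives, each without 1 of the arrays named for Hmgcs1 other than unconventional drug replicate 4, up to an adjusted p of 0.068.

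Hsd17b7, the ketosteroid reductase of the same demethylation complex, was the sterol enzyme that fell in both clones. It went from 11.32 ± 0.07 to 10.96 ± 0.13 (SD, n = 4) in the conventional clone and from 10.68 ± 0.25 to 9.89 ± 0.14 (SD, n = 4) in the unconventional one, without overlap. The changes were -0.36 (SE 0.11, adjusted p = 0.011) and -0.80 (SE 0.11, adjusted p = 7.9e-06).

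Sc5d, which introduces the last ring double bond before Dhcr7 acts, rose from 10.28, 10.00, 9.96 and 10.18 to 11.06, 11.32, 10.95 and 11.16 in the conventional clone. In the unconventional clone it read 10.10, 10.19, 10.01 and 10.06 without the drug and 9.88, 9.94, 9.86 and 9.98 with it. All arrays with the drug were higher in the first clone and lower in the second, and the changes were 1.02 (SE 0.09) and -0.17 (SE 0.09, adjusted p = 0.18). Ebp, the sterol isomerase, rose by 0.47 (SE 0.08) in the conventional clone and changed by 0.08 in the other. Dhcr7, the final reductase, changed little, by 0.18 (adjusted p = 0.038) and -0.17 (adjusted p = 0.073), and the first call was lost in 7 of 16 alternatives, among them leaving out conventional anti-CD3 replicate 2, 3 or 4 or drug replicate 2. Tm7sf2, a sterol reductase near the median level of all genes, changed by 0.20 and 0.25, and the call in the unconventional clone was lost in 10 of 16 alternatives, among them leaving out unconventional anti-CD3 replicate 3 or any array with the drug.

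**Figure D2:**
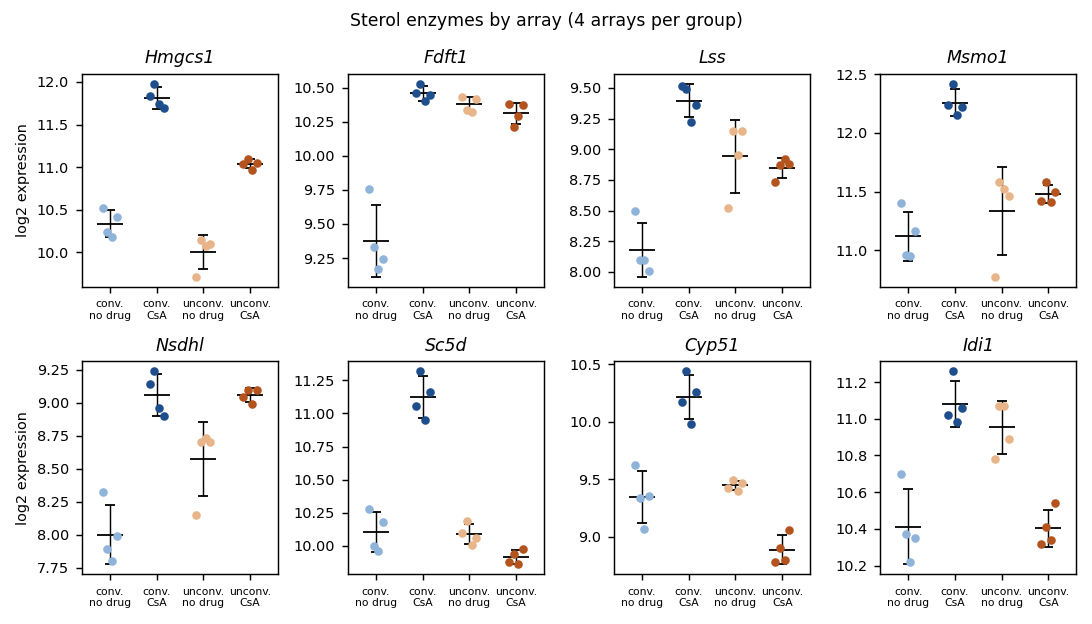
Log2 expression of 8 sterol enzymes on each array, with 4 arrays in each of 4 groups; horizontal bars are means and whiskers SD. In the conventional clone the arrays with the drug lie above those without for all 8, while in the unconventional clone Hmgcs1 and Nsdhl lie higher with the drug, Cyp51, Idi1 and Sc5d lie lower and the others overlap.

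The difference between the clones was tested directly as an interaction. It was called for 14 of 17 sterol enzyme genes, all with a smaller or opposite change in the unconventional clone, where 7.78% of all genes were called in that direction and 8.51% in the other. Of these 14 calls, 12 held in all 23 alternatives, the exceptions being Hmgcs1 and Nsdhl. The median difference was -0.99, against 0.00 over all genes. Of the fatty acid enzyme genes 2 of 10 were called, with a median of -0.11 (-0.16 to -0.01 when single arrays were left out).

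Within a group, many sterol genes had their highest or lowest value on the same array. How often this held over all genes was not counted, so it is not shown to be particular to sterol genes. Conventional anti-CD3 replicate 1 was the highest of its 4 arrays for 15 of 17 sterol enzymes, and replicate 3 was the lowest for 10. Unconventional anti-CD3 replicate 1 was the lowest of its group for 10, and replicate 3 for the other 7. With the drug, conventional replicate 3 was the lowest for 12. The deviations of single enzymes within a group are therefore not independent of each other.

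The regulators of the pathway split. Srebf1 rose alike in both clones, by 0.61 (SE 0.07) and 0.64 (SE 0.07), with a difference of 0.03 (interval -0.17 to 0.23). Its arrays read 9.31, 9.17, 9.25 and 9.25 without and 9.95, 9.84, 9.81 and 9.81 with the drug in the conventional clone, and 9.39, 9.27, 9.20 and 9.42 without and 10.07, 9.93, 9.90 and 9.93 with it in the unconventional clone. With the drug both groups lay above both groups without it.

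Srebf2, the sterol-directed factor, rose from 10.30, 10.30, 10.26 and 10.18 to 10.69, 10.76, 10.62 and 10.61 in the conventional clone (0.41, SE 0.06, adjusted p = 2e-05). In the unconventional clone it read 10.35, 10.33, 10.27 and 10.37 without and 10.34, 10.45, 10.48 and 10.49 with the drug, groups that overlapped, and it was not called (0.11, interval -0.02 to 0.24). The difference was -0.30 (SE 0.09, adjusted p = 0.020), a call lost in 2 of 23 alternatives, median centring (adjusted p = 0.051) and leaving out unconventional replicate 1 with the drug (adjusted p = 0.053).

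Insig1 is itself a target of the SREBPs and retains SCAP. It read 11.34, 11.13, 11.03 and 11.13 in the conventional clone without the drug and 12.05, 12.13, 11.94 and 12.14 with it. The unconventional clone read 10.30, 10.69, 10.54 and 10.77 without and 10.48, 10.55, 10.22 and 10.49 with it. It rose by 0.91 (SE 0.10, adjusted p = 3.2e-07) in the first, without overlap, and was not called in the second (-0.14, interval -0.35 to 0.07). The difference was -1.04 (SE 0.14, adjusted p = 1.7e-05), close to the median of the sterol enzymes.

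Scap went the other way. It read 8.98, 9.05, 9.04 and 8.85 without and 8.93, 8.85, 8.85 and 8.75 with the drug in the conventional clone, where it was not called (-0.14, adjusted p = 0.14). In the unconventional clone it rose from 9.09, 9.0, 8.92 and 8.97 to 9.37, 9.40, 9.34 and 9.30, without overlap (0.36, SE 0.07, adjusted p = 0.00032). It was the 1 member called with a higher change in the unconventional clone (0.49, SE 0.09, adjusted p = 0.00072).

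Stard4, a soluble carrier of cholesterol and a known sterol-regulated gene, fell in both clones. It went from 10.91 ± 0.05 to 10.11 ± 0.09 (SD, n = 4) in the conventional clone and from 10.36 ± 0.12 to 9.59 ± 0.07 (SD, n = 4) in the unconventional one, without overlap. The changes were -0.80 and -0.77 (SE 0.07 each), which are close to each other. It thus moved against most of the sterol enzymes in the conventional clone.

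**Figure D3:**
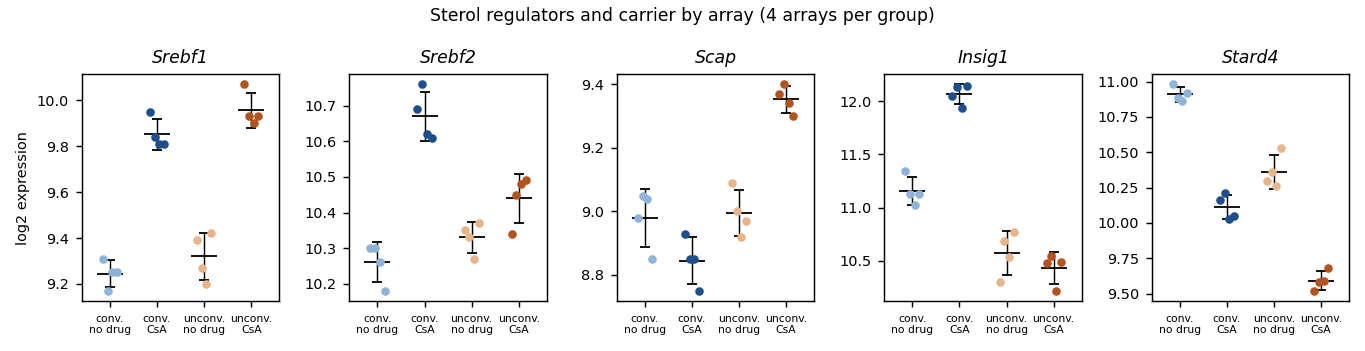
Log2 expression of the 5 regulators and carriers on each of 16 arrays, 4 per group, with mean bars and SD whiskers. Srebf1 is higher and Stard4 lower with the drug in both clones, Insig1 and Srebf2 are higher with it in the conventional clone, and Scap is higher with it in the unconventional clone.

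The fatty acid branch had no common direction but held the largest single change. Acss2, which makes acetyl-CoA from acetate in the cytosol and nucleus and so feeds both branches, ranked 4 of 19938 genes by its rise in the conventional clone. It read 5.73, 5.39, 5.67 and 5.62 without the drug and 8.87, 8.66, 8.75 and 9.02 with it. It also rose in the unconventional clone, from 6.26, 6.63, 6.71 and 6.90 to 7.63, 7.84, 8.09 and 7.85. No groups overlapped within a clone. The rises were 3.23 (SE 0.12, 9.36-fold) and 1.23 (SE 0.12, 2.34-fold), and their difference was -2.00 (SE 0.17, adjusted p = 7.7e-08). The level in the conventional clone without the drug, 5.60 ± 0.15 (SD, n = 4), lay near the median gene mean of 5.52, where array values follow RNA poorly, so the size of that rise, its fold and the difference are approximate. Acly, which makes acetyl-CoA from citrate instead, was not called in either clone (-0.06 and 0.01) and kept group means between 10.61 and 10.70.

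Me1, the cytosolic malic enzyme, supplies NADPH to fatty acid synthesis. It fell from 12.21, 11.88, 12.03 and 12.32 to 11.29, 10.70, 10.74 and 11.29 in the conventional clone and from 10.41, 10.42, 10.53 and 10.74 to 9.67, 9.43, 9.34 and 9.55 in the unconventional clone. Neither pair of groups overlapped, and the changes were -1.10 (SE 0.13) and -1.03 (SE 0.13), with a difference of 0.08 (interval -0.32 to 0.47). A second Me1 probe set gave -1.10 in both clones.

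Fasn, the fatty acid synthase itself, fell as well. It read 10.97, 11.09, 11.15 and 10.69 without and 10.43, 10.48, 10.48 and 10.37 with the drug in the conventional clone, and 11.12, 10.87, 10.82 and 10.67 without and 10.04, 10.21, 10.33 and 10.12 with it in the unconventional one. The groups did not overlap, with changes of -0.54 (SE 0.10, adjusted p = 0.00026) and -0.69 (SE 0.10, adjusted p = 2.6e-05). Acaca, the acetyl-CoA carboxylase of the committed step, changed by -0.02 in the conventional clone and by -0.33 (adjusted p = 0.019) in the unconventional one, where its arrays overlapped and a dimmer probe set gave -0.21 (adjusted p = 0.16). It was no longer called without unconventional anti-CD3 replicate 1 (-0.23, adjusted p = 0.082) and without unconventional drug replicate 1 or 4. Neither Fasn nor Acaca was called upward in either clone.

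Among desaturases, Scd2 and Fads2 rose in both clones. Scd2, a stearoyl-CoA desaturase, rose from 12.38 ± 0.10 to 12.94 ± 0.06 (SD, n = 4) in the conventional clone and from 12.38 ± 0.04 to 12.67 ± 0.05 (SD, n = 4) in the unconventional one. Its smaller rise in the latter (difference -0.28, adjusted p = 0.043) lost its call in 12 of 23 alternatives, 10 of them leaving out 1 array: conventional anti-CD3 replicate 2 or 3, conventional drug replicate 1, 2 or 4, unconventional anti-CD3 replicate 3 or 4, or unconventional drug replicate 1, 2 or 3. Fads2, the delta-6 desaturase of polyunsaturated fatty acids, rose by 0.68 (SE 0.12) and 0.67 (SE 0.12). Fads1, the delta-5 desaturase, rose by 0.44 (SE 0.13, adjusted p = 0.013) in the conventional clone with overlapping arrays, a call lost without conventional anti-CD3 replicate 2 (0.32, adjusted p = 0.064), and by 0.30 (adjusted p = 0.12) in the other. Elovl6, which lengthens palmitate to stearate, and Scd1 were not called (-0.18 and -0.26 for Elovl6, -0.06 and 0.08 for Scd1).

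The clones also differed from each other apart from the drug, and here the fatty acid branch held the largest differences. These comparisons use the same arrays as those of the drug and are not independent of them. With anti-CD3 alone, 10 of 32 members were called higher and 7 lower in the unconventional clone, against 20.3% and 21.7% of all genes. Median centring changed the split of all genes from 4048 higher and 4328 lower to 4418 and 2952; over the alternatives 9 to 12 members were higher and 6 to 8 lower. With the drug, 3 members were higher and 23 lower, against 21.3% and 23.0% of all genes.

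Scd1 set the clones furthest apart. In the conventional clone it read 4.06, 4.34, 3.90 and 4.00 without and 4.02, 4.24, 3.85 and 3.93 with the drug, and in the unconventional clone 10.99, 10.57, 10.45 and 10.50 without and 10.85, 10.64, 10.61 and 10.74 with it. The ranges were far apart in both conditions, and the drug changed neither clone detectably. The difference was 6.55 (SE 0.12, adjusted p = 3e-19) with anti-CD3 alone, rank 3 of 19938 genes by excess in the unconventional clone, and 6.69 (SE 0.12) with the drug. The level in the conventional clone lay below the median gene mean of 5.52, a range in which array values follow RNA poorly. Scd2, its close paralogue, averaged 12.38 in both clones with anti-CD3 alone. Cross-hybridisation between the paralogues was not tested.

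Fads1 ran opposite to Scd1. It read 6.86, 6.31, 6.90 and 6.67 in the conventional clone and 4.44, 4.60, 4.25 and 4.35 in the unconventional clone with anti-CD3 alone, without overlap, a difference of -2.28 (SE 0.13, adjusted p = 2.1e-11), and -2.42 (SE 0.13) with the drug. Elovl6 was lower in the unconventional clone too, at 4.82 ± 0.22 against 6.32 ± 0.24 (SD, n = 4) with anti-CD3 alone (-1.50, SE 0.12) and by -1.57 with the drug. Me1 was lower by -1.58 (SE 0.13) and -1.51 (SE 0.13), while Fads2 was higher by 0.89 (SE 0.12) and 0.88 (SE 0.12). With anti-CD3 alone Fads2 in the conventional clone, at 5.35 ± 0.29 (SD, n = 4), and Fads1 and Elovl6 in the unconventional clone lay below the median gene mean of 5.52, so these differences are approximate. For these 5 genes (Scd1, Fads1, Elovl6, Me1 and Fads2) the clone difference was called in both conditions and had the same direction. Acss2 changed order: it was higher in the unconventional clone by 1.02 (SE 0.12) without the drug and lower by -0.97 (SE 0.12) with it.

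**Figure D4:**
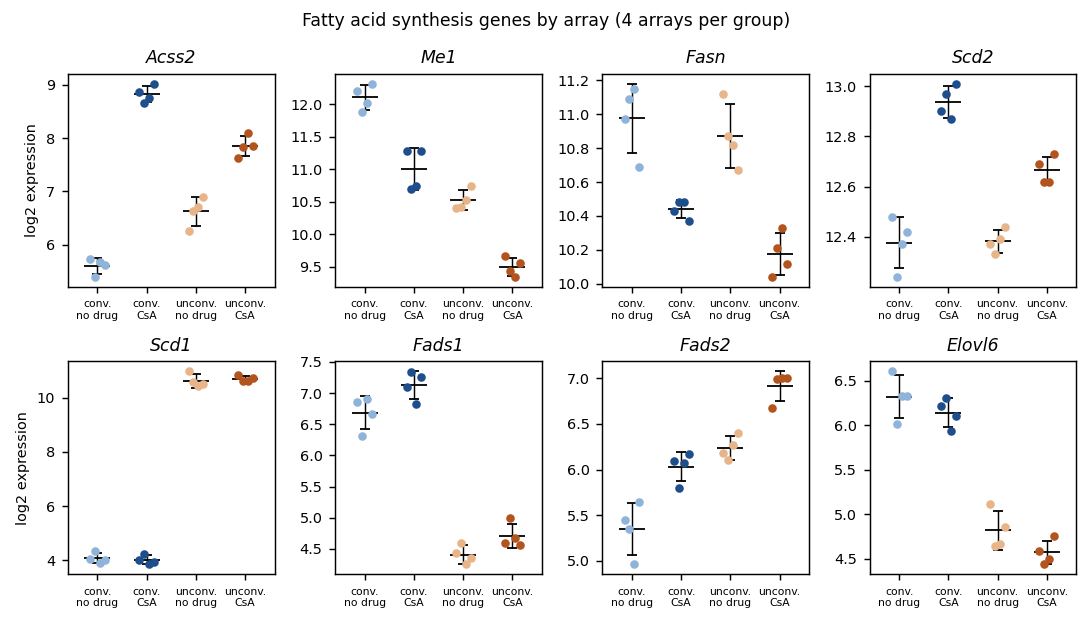
Log2 expression of 8 fatty acid synthesis genes on each of 16 arrays, 4 per group, with mean bars and SD whiskers; each panel has its own vertical scale. Acss2 is higher and Me1 and Fasn are lower with the drug in both clones, while Scd1 and Fads1 separate the clones in both conditions.

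Sterol enzymes with anti-CD3 alone were, if anything, higher in the unconventional clone, with 7 of 17 called higher and 2 lower, against 20.3% and 21.7% of all genes, and a median difference of 0.21, against -0.07. The largest were Fdft1 (1.00, SE 0.10), Lss (0.76, SE 0.12), Nsdhl (0.57, SE 0.12) and Idi1 (0.54, SE 0.10), while Hmgcs1 (-0.33, a call lost with median centring at -0.27) and Hsd17b7 (-0.63) were lower. With the drug 13 of 17 were called lower in the unconventional clone, against 23.0% of all genes, with a median of -0.68, against -0.08. Cyp51 differed most (-1.33, SE 0.11), followed by Sc5d (-1.21, SE 0.09) and Hsd17b7 (-1.07, SE 0.11), and Nsdhl was not called (0.00, interval -0.26 to 0.26). Mvd, Idi1, Fdps and Lss were called higher in the unconventional clone without the drug and lower with it, of which the call of Fdps without the drug (0.23, adjusted p = 0.024) was lost in 7 of 16 alternatives, among them leaving out conventional replicate 2 or 3 or unconventional replicate 2 or 4. Insig1 was lower in both conditions, by -0.58 and -1.63.

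Neighbouring lipid genes are described by their counts, which were not tested against those of the members. Over all genes, 15.9% rose and 15.5% fell in the conventional clone and 12.6% and 12.3% in the unconventional one. Of 12 listed genes of isoprenoid and late sterol steps, 9 were measured: Ggps1, Acat1, Erg28, Dhdds, Nus1, Pdss2, Coq2, Fntb and Pggt1b. Of these, 3 rose and 3 fell in the conventional clone and 2 and 2 in the unconventional one. The measured genes are mostly isoprenoid ones, so the counts say little of late sterol steps. Ggps1, which makes geranylgeranyl diphosphate, changed by 0.75 and 0.14 in the conventional and unconventional clone, Dhdds, for dolichol, by 0.53 and 0.14, the farnesyltransferase subunit Fntb by -0.46 and -0.68, and Pggt1b, of the enzyme that attaches the longer prenyl group, by 0.16 and 0.42; of these changes 0.14, 0.14 and 0.16 were not called. Of 10 genes of SREBP processing and degradation, 4 rose and 3 fell in the conventional clone and 1 rose and 2 fell in the other, the latter near the shares over all genes. Insig2, the relative of Insig1, rose by 0.51 in the conventional clone (0.09, not called, in the other), and the ubiquitin ligase Syvn1 rose by 0.63 and 0.37. Tmem33 fell, with changes of -0.47 and -0.23, and Erlin1, which takes part in sterol-driven degradation, changed by -0.14 (not called) and -0.56.

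Of 17 genes of sterol uptake, esterification and release, 10 rose and 4 fell in the conventional clone and 8 rose and 3 fell in the unconventional one, with medians of 0.34 and 0.24. Both counts of rises were above the 15.9% and 12.6% of all genes that rose. The oxysterol-binding protein Osbp rose by 1.02 and 0.38 and its relative Osbpl5 by 0.84 and 1.01. Osbpl6 rose by 1.25 in the conventional clone (-0.11, not called, in the other), and Gramd1a, a sterol transporter, changed by -0.93 there (-0.12, not called, in the other). Osbpl6 averaged 4.73 without the drug in the conventional clone and 4.07 and 3.96 without and with it in the other. These levels lay below the median gene mean of 5.52, so the changes of Osbpl6 are approximate. Among 12 genes of the liver X receptors (LXR), which sense oxysterols, 3 rose and 2 fell in the conventional clone, against 15.9% and 15.5% of all genes. In the unconventional clone 2 rose and 0 fell, against 12.6% and 12.3%. With so few genes these counts show no clear departure from the shares. Srebf1, already counted among the members, is one of these target genes and of those that rose in both clones. Abcg1 and Abca1 are in this list too and were already counted among the genes of sterol uptake, esterification and release. In the unconventional clone the 2 rises were those of Srebf1 and Abcg1, so this list adds no separate rise there. The sterol exporters Abcg1 and Abca1 changed by 0.67 and -0.61 in the conventional clone and by 0.46 and 0.01 in the other, the last not called, and Lpcat3 by 0.36 and 0.06, the last not called. Abca1 averaged 4.81 and 4.20 without and with the drug in the conventional clone and 4.03 and 4.04 in the other. It thus also lay below the median gene mean, and its changes are approximate.

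Of 29 other genes of fatty acid and glycerolipid synthesis, 10 rose and 8 fell in the conventional clone and 10 rose and 4 fell in the unconventional one, where 15.9% and 15.5% of all genes rose and fell in the former and 12.6% and 12.3% in the latter. Lpin1, the phosphatidate phosphatase that makes diacylglycerol, rose by 2.48 (SE 0.16) and 1.17 (SE 0.16), with a difference of -1.31 (SE 0.23, adjusted p = 0.00037). Idh1, a cytosolic source of NADPH, rose by 2.12 and 1.24, the desaturase relative Fads3 by 0.68 and 1.53, and Dgat2, which makes triglyceride, changed by -1.54 and -1.27. Without the drug Fads3 averaged 5.19 in the conventional and 4.97 in the unconventional clone, below the median gene mean of 5.52. Lpin1 averaged 5.69 in the conventional clone without the drug, near that mean. The rises of Fads3 and that of Lpin1 in the conventional clone are therefore approximate. Of 20 genes of fatty acid uptake and oxidation, 10 rose and 2 fell in the conventional clone and 10 rose and 3 fell in the unconventional one, so that the rises in both exceeded the 15.9% and 12.6% over all genes. The transporter Slc27a1 rose by 3.22 and 1.32, the carnitine palmitoyltransferase Cpt1a by 0.78 and 1.39, and Hadhb, of mitochondrial beta-oxidation, by 1.35 and 0.61. Cd36, the fatty acid translocase, fell, with changes of -3.46 and -2.21. In the unconventional clone with the drug it averaged 5.14, below the median gene mean, so the latter change is approximate. Slc27a1, like Acss2, rose less in the unconventional clone (difference -1.91, adjusted p = 1.1e-07).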

How the data were processed

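Expression was measured on 16 single-colour Affymetrix whole-transcript arrays. The authors deposited log2 expression values per probe set, whose scale was inferred from the values (2.08 to 14.55). GCOS, Partek 6.2 and RMA are named, with no role or order, per the submitters' processing notes. The build and annotation were not given in the sources used here. RMA, as commonly run, makes arrays alike in distribution and compresses differences near background.

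Of 28853 probe sets, 21789 had 1 gene symbol, 1621 several and 5443 none here, which left 19938 genes at the probe set with the highest mean. No dim genes were removed. Groups follow the titles of the samples. The program limma 3.58.1 in R 4.3.3 fitted the 4 group means together (12 residual degrees of freedom) and gave two-sided tests; the script was tested on simulated data. Alternatives were all probe sets averaged, brighter genes, 3 normalizations, a trended robust variance, the compared arrays alone, a replicate block and each array left out. The members, lists, motifs and named genes were chosen with earlier results of these data known. Named with values per array were members that changed by at least 1 on the log2 scale in a clone, the 3 largest differences of effect and Srebf1, Srebf2, Scap and Insig1; other members whose values per array are given were chosen after their values were seen. In each neighbouring list, up to 4 called genes with the largest change were named. The number of arrays limits the precision.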

Additional observations from a re-analysis of the deposited data

Results flagged for a closer look

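The drug's effect differed between the clones for 19 of the 32 members in limma's model (adjusted over all genes, unconventional minus conventional change). The change was higher in the unconventional clone for 1 and lower for 18, where 8.51% and 7.78% of all genes were called. For sterol enzymes the differences were -1.43 for Cyp51, -1.32 for Lss, -1.22 for Idi1, -1.19 for Sc5d, -1.15 for Fdft1, -1.04 for Pmvk, -1.02 for Sqle, -0.99 for Mvd and for Msmo1, -0.97 for Fdps, -0.57 for Nsdhl, -0.44 for Hmgcs1, -0.39 for Ebp and -0.35 for Dhcr7. For regulators they were -1.04 for Insig1, -0.30 for Srebf2 and 0.49 for Scap, and for fatty acid enzymes -2.00 for Acss2 and -0.28 for Scd2.

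In 7 of 128 sets of 4 arrays, 1 array stood apart from the other 3. Chance alone marks about 1 in 20 sets of independent values under this rule, but the sets share arrays, and 3 of the 7 fell on 1 array. Unconventional anti-CD3 replicate 1 was low for Hmgcs1 (9.71, the others from 10.07 to 10.15), Msmo1 (10.77, the others from 11.46 to 11.58) and Nsdhl (8.15, the others from 8.70 to 8.73). Replicate 3 of that group was low for Tm7sf2 (5.47, the others from 5.77 to 5.79). With the drug, conventional replicate 2 was high for Dhcr7 (9.03, the others from 8.83 to 8.85), and unconventional replicate 1 was high for Srebf1 (10.07, the others from 9.90 to 9.93) and low for Fads2 (6.67, the others from 6.99 to 7.0).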

How the results depend on the processing

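The counts of members called and the medians of the sterol branch ran over the alternatives as follows: 19 to 22 members rose in the conventional clone, 7 to 9 in the unconventional one, and 14 to 19 differed downward between the clones, with sterol medians of 0.76 to 0.88, -0.16 to -0.05 and -1.06 to -0.91. In the main fit 15.9%, 12.6% and 7.78% of all genes were called in these directions. The median difference of the fatty acid enzymes ran from -0.16 to -0.01 with single arrays left out. Signs turned only for changes that were not called: Scap between the clones without the drug was -0.06 under quantile normalization and under cyclic loess (-0.03 to 0.04 with arrays left out), Sc5d in that comparison 0.05 under median centring (-0.07 to 0.04), and Acly in the unconventional clone -0.04 under median centring (-0.02 to 0.03). With single arrays left out, the conventional clone gave -0.10 to 0.02 for Acaca and -0.14 to 0.03 for Scd1, the unconventional clone -0.04 to 0.23 for Msmo1 and -0.10 to 0.02 for Mvk, and the differences of effect were -0.02 to 0.17 for Me1 and -0.01 to 0.06 for Srebf1. The cause was not tested.

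Replicate numbers did not clearly pair the samples. Of 24 same-number pairs, 3 had deviations correlated over 0.1 (median 0.036, against -0.014 for different numbers). Among the arrays of the other groups, 7 of 16 arrays correlated best with their own number. In each other group a single array of the 4 bears an array's own number, so some best matches fall by chance. Same-number arrays without and with the drug correlated at 0.058 to 0.104 in the unconventional clone and -0.132 to 0.284 in the conventional one. Weak pairing can therefore not be dismissed. With the replicate block, 6258 genes were called in the conventional clone in place of 6269, 4960 in place of 4970 in the unconventional clone and 3229 in place of 3247 for the difference, and the calls of Dhcr7 in the conventional clone (adjusted p = 0.056) and Tm7sf2 in the unconventional one (adjusted p = 0.064) were lost. Levels near background, as of Scd1 and, without the drug, Acss2 and Fads2 in the conventional clone and Fads1 and Elovl6 in the unconventional one, limit what a difference against them shows. Among neighbouring genes, levels near or below the median gene mean likewise limit the changes of Osbpl6, Abca1, Fads3, Lpin1 and Cd36.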
